A study of Homo sapiens with 9 samples.

Results

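Imprinted genes are expressed mainly from the chromosome inherited from 1 parent, and 38 of them were followed here in definitive endoderm made from human embryonic stem cells with and without CHD7. The genes were listed by name and grouped by imprinted domain and by the parental allele that is usually expressed, and no measured value enters the rule, although earlier results of these data were known when the list was made. A row in the count table was found for 32 of the 38, in 18 of 19 domains, and 28 had enough counts to be tested among 16837 tested genes. NDN, MAGEL2, MKRN3, PEG3, ZIM2 and HYMAI had no row and were not analysed here. The listed genes comprised 22 usually expressed from the paternal allele, 9 from the maternal allele and 7 whose imprinting depends on the isoform, the tissue or the person.

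RNA was sequenced from 9 libraries of definitive endoderm derived from H9, an established human embryonic stem cell line. The 3 genotypes were wild type (CHD7+/+), heterozygous (CHD7+/-) and homozygous mutant (CHD7-/-), with 3 libraries each, and the mutants had been made by deleting CHD7 with CRISPR/Cas9. CHD7 encodes an ATP-dependent chromatin remodeller, and the study asked how its loss affects the formation of endoderm. The labels name no clones, cultures or days, and the 3 libraries of a genotype may therefore be technical repeats, in which case each p-value reflects technical spread alone.

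Imprinting rests on DNA methylation that is laid down differently in egg and sperm at imprinting control regions and is then kept through the genome-wide loss of methylation in the early embryo. Zinc finger proteins such as ZFP57 and ZNF445 bind the methylated copy of a control region and recruit TRIM28, which holds the copy silent. Many imprinted genes act on fetal growth, the placenta or the brain, and cultured pluripotent cells can lose imprints. The counts used here do not separate the alleles, so every value below is the sum over both.

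Promoter sequences were available for 22 of the 38 genes, in 52 windows of 300 bases (RefSeq, GRCh38.p14, 250 bases before to 50 after a start). PEG10, SGCE, CDKN1C and PEG13 were among the 16 without an entry. The windows of NAP1L5, L3MBTL1 and PPP1R9A are shown because these 3 genes differed between homozygous and wild-type cells. They lie at chr4:88697780-88698079 (minus strand), chr20:43507447-43507746 (plus strand) and chr7:94907344-94907643 (plus strand). Capitals mark TGCCGC, the hexamer that ZFP57 recognises when its CpG is methylated, or its reverse complement GCGGCA.
NAP1L5: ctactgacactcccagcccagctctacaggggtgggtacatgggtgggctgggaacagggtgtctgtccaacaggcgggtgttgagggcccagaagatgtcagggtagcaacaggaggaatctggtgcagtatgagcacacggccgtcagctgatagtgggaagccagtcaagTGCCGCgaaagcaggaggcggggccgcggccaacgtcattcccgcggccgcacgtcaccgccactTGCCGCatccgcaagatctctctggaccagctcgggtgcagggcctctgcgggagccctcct
L3MBTL1: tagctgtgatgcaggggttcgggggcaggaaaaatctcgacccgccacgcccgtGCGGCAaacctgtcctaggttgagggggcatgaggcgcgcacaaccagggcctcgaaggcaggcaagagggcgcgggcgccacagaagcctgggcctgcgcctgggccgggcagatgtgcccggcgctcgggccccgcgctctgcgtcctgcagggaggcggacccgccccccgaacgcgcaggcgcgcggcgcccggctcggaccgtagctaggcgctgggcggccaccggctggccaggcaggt
PPP1R9A: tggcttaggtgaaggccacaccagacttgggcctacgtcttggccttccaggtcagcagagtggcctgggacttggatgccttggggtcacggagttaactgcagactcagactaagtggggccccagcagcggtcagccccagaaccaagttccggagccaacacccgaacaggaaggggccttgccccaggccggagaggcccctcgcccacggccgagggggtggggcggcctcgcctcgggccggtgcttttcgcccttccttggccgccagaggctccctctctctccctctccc
The NAP1L5 window held 18 CpG and 2 hexamers, the L3MBTL1 window 35 CpG and 1 hexamer, and the PPP1R9A window 15 CpG and no hexamer. A second L3MBTL1 window, at chr20:43514191-43514490, held 9 CpG and no hexamer. Searched on both strands, the hexamer occurred in 21 of the 52 windows (40.4%) and in at least 1 window of 13 of the 22 genes. It occurred in 16.7% of all 34943 windows of the same table, and the median number of CpG was 18 in the windows of the imprinted genes and 14 in all windows. The 16.7% is a share of windows, and no share of genes was computed to set beside the 13 of 22. A gene with several windows has more places for a match. Several windows of 1 gene overlap, and a match is a description of letters and not of binding.

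Library totals ranged from 11854173 counts in homozygous replicate 1 to 37519729 in wild-type replicate 1. CHD7 itself was at 189.02 to 195 CPM (counts per 1000000 after scaling to library size) in wild-type, 110 to 130 in heterozygous and 42.9 to 56.0 in homozygous libraries, so that the order of the 3 genotypes followed the labels without overlap. CHD7 transcript remained in the homozygous libraries, and the sources used here do not give which exons were deleted. Of 16 definitive endoderm markers, all had a row and were tested. Against wild type, 5 of them fell in homozygous cells (FOXA1, MIXL1, CER1, FOXA2 and HHEX), where 4.18% of all tested genes were called lower, and FOXA1 also fell in heterozygous cells (1.04% called lower). The heterozygous FOXA1 call (adjusted p 0.0266) was lost without any 1 of 5 libraries. The summed level of all 16 was 12539 to 13423 CPM in wild-type, 10659 to 11742 in heterozygous and 8835 to 9921 in homozygous libraries. CER1 alone, a secreted antagonist of Nodal and BMP, gave 7002 to 7699, 5460 to 6779 and 3938 to 4982 CPM of these sums. In bulk RNA, fewer cells that express a gene and less of its RNA per cell cannot be told apart. Among markers of other lineages in homozygous cells, TDGF1 fell out of 11 tested pluripotency genes and KDR and TWIST1 out of 7 mesoderm genes. OTX1 rose out of 7 neuroectoderm genes, beside 3.5% of all tested genes called higher and 4.18% called lower. Not all pluripotency genes were lower in the mutants. DPPA4 stood at 138 to 150 CPM in wild-type, 169 to 171 in heterozygous and 161 to 165 in homozygous libraries. POU5F1 stood at 56.0 to 95.2, 116 to 193 and 33.4 to 122 CPM in the same order. The part of these shifts in the results below was not tested.

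Levels were compared between genes per kilobase of exon. GNAS, which encodes the stimulatory G protein alpha subunit, was highest with a mean of 111 CPM per kb over the 9 libraries. It was followed by NNAT at 48.0, GRB10 at 30.7 and MEST at 24.4 CPM per kb. PEG10 stood at 16.1 CPM per kb, while its divergent neighbour SGCE, counted over 20884 exon bases, stood at 0.797. At the low end lay H19, IGF2, MEG3, KCNK9 and MEG8, all between 0.00781 and 0.0277 CPM per kb. The 5 lowest thus included both genes of the IGF2-H19 domain and the non-coding RNAs of the DLK1-MEG3 domain.

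**Figure D1:**
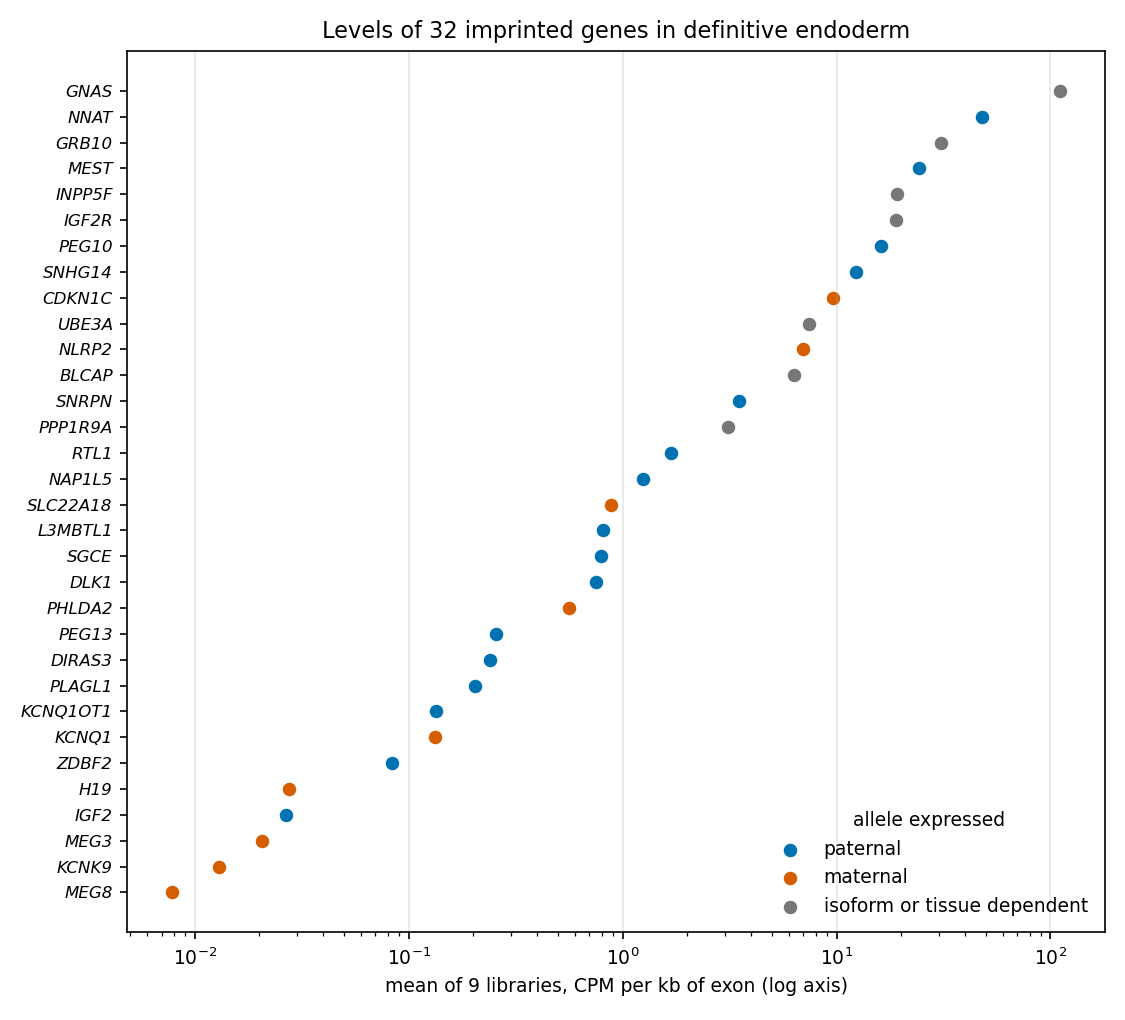
Mean level of the 32 imprinted genes with a row, in CPM per kb of exon on a log axis, over all 9 libraries, coloured by the allele usually expressed. GNAS is highest at 111 CPM per kb, and the 5 lowest genes lie between 0.00781 and 0.0277 CPM per kb.

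Between homozygous and wild-type cells, 4 of the 28 tested imprinted genes were called at an adjusted p below 0.05 (edgeR quasi-likelihood test, Benjamini-Hochberg adjustment over all 16837 tested genes). PEG10 and L3MBTL1 rose, and PPP1R9A and NAP1L5 fell. Of all tested genes, 7.68% were called in this comparison, 3.5% as higher and 4.18% as lower. The groups did not overlap for 7 of the 28, beside 28.9% of all genes, and the median log2 fold change was 0.07 beside 0.01 for all genes. By allele, 2 paternally expressed genes rose and 1 fell among 15 tested, none of 6 maternally expressed genes was called, and 1 of 7 with isoform- or tissue-dependent imprinting fell.

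Between heterozygous and wild-type cells, 2 of the 28 were called, beside 1.86% of all genes (0.82% as higher and 1.04% as lower). PEG10 rose and the non-coding RNA PEG13 fell. The groups did not overlap for 6 of the 28, beside 22.2% of all genes, and the median log2 fold change was -0.05. Between homozygous and heterozygous cells, none of the 28 was called by edgeR, beside 2.21% of all genes (0.986% as higher and 1.22% as lower). Libraries of the 2 mutants did not overlap for 6 of the 28, beside 19.5% of all genes. DESeq2 called 2 there, NNAT and PPP1R9A. An F test for any difference among the 3 genotypes called 5 of the 28 (PEG10, PPP1R9A, L3MBTL1, NAP1L5 and PEG13), beside 6.66% of all genes. These comparisons share libraries and are not independent of each other.

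**Figure D2:**
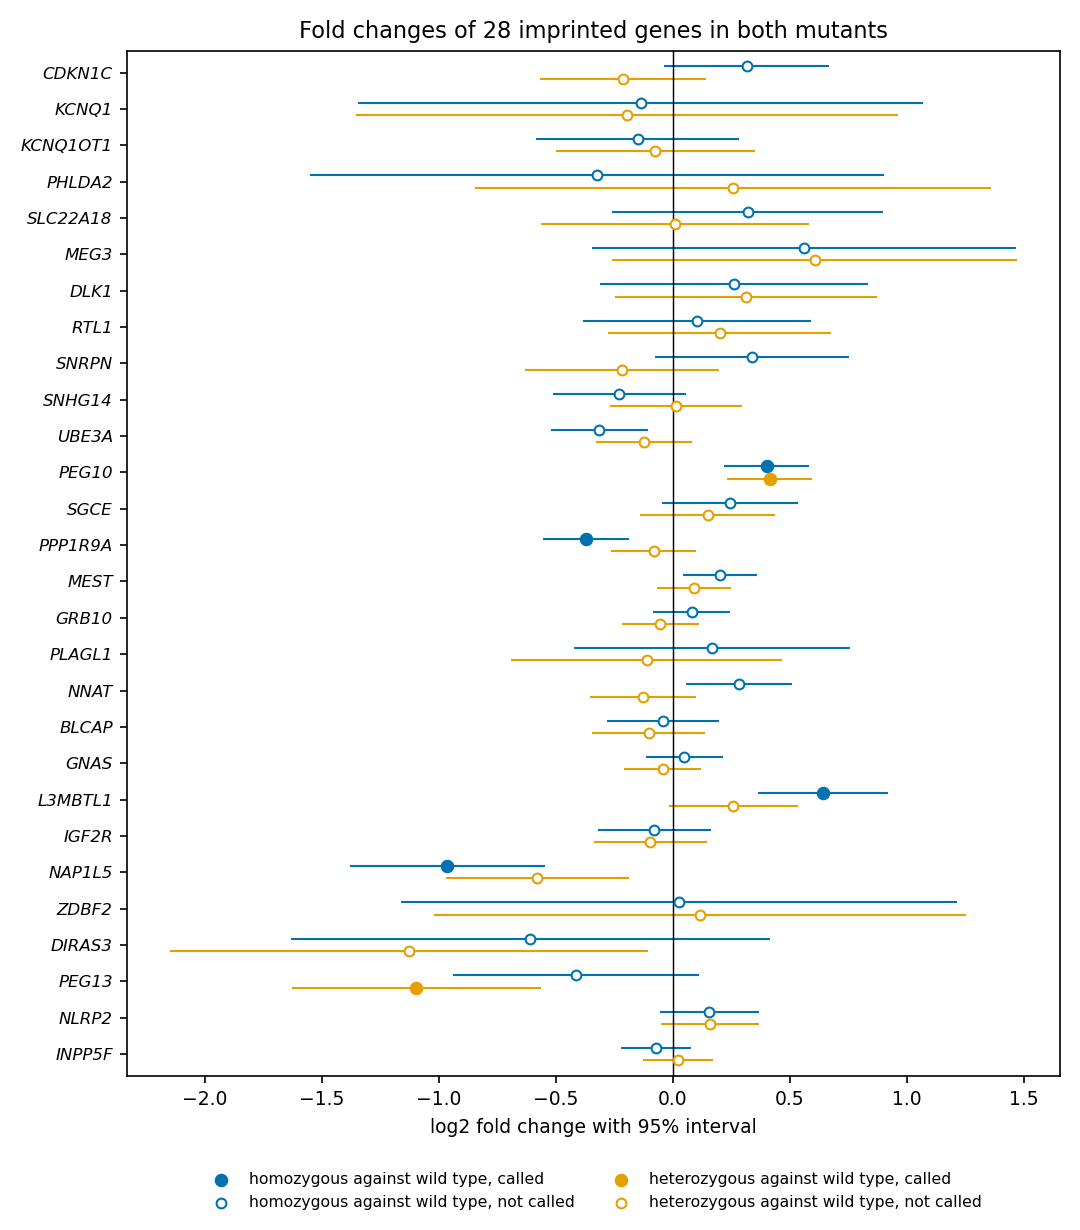
Log2 fold change of the 28 tested imprinted genes with its 95% interval, for homozygous and heterozygous cells against the same wild-type libraries. Filled points passed the test. They are PEG10, L3MBTL1, PPP1R9A and NAP1L5 in homozygous cells and PEG10 and PEG13 in heterozygous cells.

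PEG10, a paternally expressed gene derived from a retrotransposon and needed in the placenta, lies at chr7:94656325-94669695 on the plus strand. It stood at 85.1, 92.4 and 87.1 CPM in the wild-type libraries, 117, 119 and 116 CPM in the heterozygous libraries and 126, 104 and 120 CPM in the homozygous libraries. All 6 mutant libraries lay above all 3 wild-type libraries, and the mutant genotypes overlapped. PEG10 thus rose by 33.3% in heterozygous cells (log2 fold change 0.41, SE 0.08, adjusted p 0.026) and by 32.1% in homozygous cells (0.40, SE 0.08, adjusted p 0.011). Between the mutants the log2 difference was -0.01, with a 95% interval from -0.19 to 0.17. The homozygous call was lost on leaving out wild-type replicate 1 or 3 or homozygous replicate 1 (adjusted p 0.0521 to 0.0637), and the heterozygous call without any 1 of 5 libraries, all 3 wild-type ones and heterozygous replicates 1 and 2 (0.0787 to 0.158).

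PEG10 is a placental gene, so markers of trophoblast and amnion are given beside it. Of 12 such markers, 8 had a row and 3 were tested, and CDX2, CGA, CGB5 and ELF5 had no row. GATA3 and TFAP2C rose in homozygous cells against wild type, with log2 fold changes of 1.36 and 1.23, beside 3.5% of all tested genes called higher. GATA2, TFAP2A, KRT7, GABRP and TP63 held only 3 to 21 counts each over all 9 libraries and were not tested. The summed level of the list was 10.02 to 12.7 CPM in wild-type, 13.6 to 14.2 in heterozygous and 23.6 to 31.3 in homozygous libraries. Most of it was TFAP2C alone, at 8.07 to 10.6, 11.4 to 12.7 and 19.6 to 26.9 CPM in the same order. PEG10 stood at 116 to 119 CPM in the heterozygous and 104 to 126 CPM in the homozygous libraries. The part of trophoblast or amnion cells in the PEG10 result was not tested.

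SGCE, which encodes epsilon-sarcoglycan and starts within 1 kb of PEG10 on the other strand, was not called. It stood at 16.3, 14.7 and 14.3 CPM in wild-type, 16.3, 15.8 and 18.3 CPM in heterozygous and 19.96, 19.5 and 14.5 CPM in homozygous libraries. Homozygous replicate 3 lay among the wild-type libraries while the other two lay above them, and the estimated difference of 0.25 on the log2 scale (SE 0.13) had an adjusted p of 0.297. The exons of PEG10 and SGCE overlap over 3.27% of the PEG10 exon bases, and without a stated strand setting reads from that stretch cannot be assigned to either.

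PPP1R9A, which encodes the actin-binding scaffold neurabin and is maternally expressed in some tissues, starts 251 kb from the PEG10 start. It stood at 38.5, 37.3 and 38.5 CPM in wild-type libraries, 35.6, 36.5 and 36.0 in heterozygous libraries and 31.4, 27.4 and 29.9 in homozygous libraries. The 3 genotypes followed each other downwards without overlap, an order that 1.19% of all tested genes shared. The fall passed the test in homozygous cells (log2 fold change -0.37, SE 0.08, adjusted p 0.0185), a decrease of 22.6% of the wild-type level. In heterozygous cells the log2 fold change was -0.08 with a 95% interval from -0.26 to 0.10. The homozygous call was lost without any 1 of the wild-type libraries or without homozygous replicate 2 (adjusted p 0.0619 to 0.0839).

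PEG10 and PPP1R9A, members of the same domain, thus moved in opposite directions in homozygous cells. Within 1.5 Mb of the PEG10 start, 10 other genes outside the list were tested, and this window was set with the values known. Of these, 3 fell in homozygous cells and none rose, beside 4.18% and 3.5% of all tested genes, and none was called in heterozygous cells. The 3 were CALCR (calcitonin receptor, log2 fold change -0.74, adjusted p 0.00157), COL1A2 (type I collagen, -0.89, adjusted p 0.00155) and DYNC1I1 (a dynein subunit, -0.62, adjusted p 0.0212). The DYNC1I1 call was lost without any 1 of 4 libraries (adjusted p 0.0821 to 0.0959). CASD1, at 0.05, and PON2, at 0.12, were not called, although CASD1 starts only 147 kb from PEG10.

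**Figure D3:**
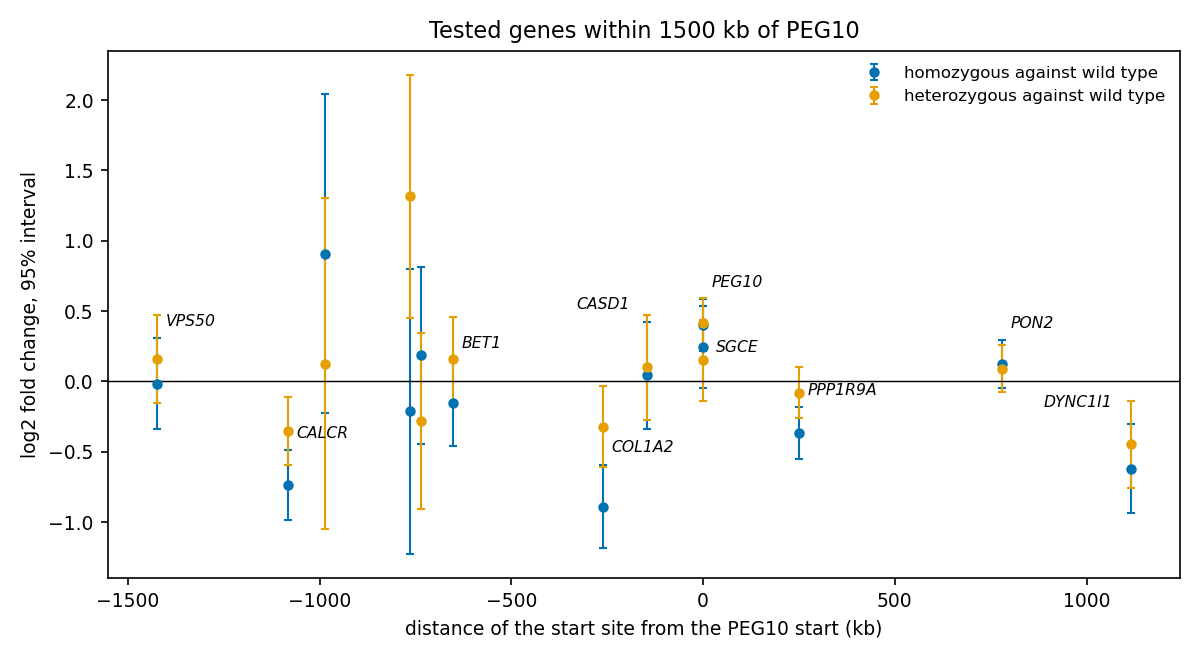
Log2 fold change with its 95% interval of the 13 tested genes that start within 1500 kb of PEG10, against the distance from the PEG10 start. Genes with a mean of at least 5 CPM are named. In homozygous cells PEG10 rose, while CALCR, COL1A2, PPP1R9A and DYNC1I1 fell.

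L3MBTL1, a paternally expressed gene at chr20:43489442-43550950, encodes a polycomb-related protein that binds methylated histone tails and compacts chromatin. It stood at 10.96, 9.01 and 10.2 CPM in wild-type, 11.4, 11.6 and 13.2 CPM in heterozygous and 14.9, 17.4 and 14.6 CPM in homozygous libraries. It was the only tested imprinted gene that followed the genotypes upwards without overlap, and 2.26% of all tested genes were ordered without overlap in either direction. L3MBTL1 rose by 56.1% in homozygous cells (log2 fold change 0.64, SE 0.13, adjusted p 0.00788). In heterozygous cells the estimate was 0.26 (SE 0.13) and missed the threshold at an adjusted p of 0.402. Without wild-type replicate 2 the homozygous call was lost (adjusted p 0.0575).

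Within 1.5 Mb of L3MBTL1, 2 of 21 other tested genes were called in homozygous cells against wild type, HNF4A and TOX2, and both rose. This share is near the 7.68% called over all tested genes. HNF4A, a hepatic and visceral endoderm factor, had a log2 fold change of 0.77. SRSF6, the splicing factor gene next to L3MBTL1, was not called at -0.07. HNF4A belongs to a list of 12 primitive and visceral endoderm markers. Of these, 9 were tested and 2 rose in homozygous cells, HNF4A and APOA2, beside 3.5% of all tested genes called higher. APOA1 and CUBN overlapped between homozygous and wild-type libraries. HNF4A stood at 21.28 to 24.9 CPM in wild-type, 19.7 to 24.9 in heterozygous and 36.9 to 41.7 in homozygous libraries, and APOA2 at 12.7 to 16.4, 21.2 to 28.3 and 21.9 to 35.7 CPM. The summed level of the list, 796 to 1214, 1204 to 1426 and 942 to 1401 CPM in the same order, consisted mostly of FN1, a matrix gene not particular to these cells, at 566 to 1195 CPM over the 9 libraries. The part of such cells in the L3MBTL1 result was not tested.

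NAP1L5, an intronless paternally expressed gene of the nucleosome assembly family at chr4:88695915-88697829, showed the largest fold change among the 4 genes called in homozygous cells. It stood at 3.22, 3.15 and 3.44 CPM in wild-type libraries, 2.18, 2.34 and 2.03 CPM in heterozygous libraries and 1.92, 1.62 and 1.54 CPM in homozygous libraries. As with PPP1R9A, the 3 genotypes followed each other downwards without overlap. NAP1L5 fell by 48.7% in homozygous cells (log2 fold change -0.96, SE 0.19, adjusted p 0.00804), and the call held on leaving out each of the 9 libraries in turn. The heterozygous estimate was -0.58 (SE 0.18, adjusted p 0.158). FAM13A, a nearby gene, stood at a log2 fold change of -0.07 in homozygous cells. Of 17 other tested genes within 1.5 Mb, 1 was called, PPM1K, as lower in both mutants. Of all tested genes, 4.18% were called lower in homozygous and 1.04% in heterozygous cells. The heterozygous PPM1K call was lost without any 1 of 4 libraries (adjusted p 0.0621 to 0.121).

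PEG13, a paternally expressed non-coding RNA made from within an intron of TRAPPC9, was called in heterozygous cells. It stood at 1.61, 2.16 and 2.12 CPM in wild-type, 0.813, 0.876 and 1.06 CPM in heterozygous and 1.25, 1.46 and 1.64 CPM in homozygous libraries. The heterozygous libraries were the lowest and did not overlap with the other two genotypes. Homozygous replicate 3 lay just above wild-type replicate 1, so those genotypes overlapped. PEG13 fell by 53.2% in heterozygous cells (log2 fold change -1.10, SE 0.25, adjusted p 0.0422). Against wild type the homozygous estimate was -0.41 (SE 0.24, adjusted p 0.332), and between the mutants it was 0.68 (adjusted p 0.195). The heterozygous call was lost without any 1 of 6 libraries (adjusted p 0.0536 to 0.232). TRAPPC9 did not pass the test, at -0.08 in heterozygous cells, and KCNK9, the maternally expressed gene of the domain, had 24 counts over all 9 libraries and was not tested.

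**Figure D4:**
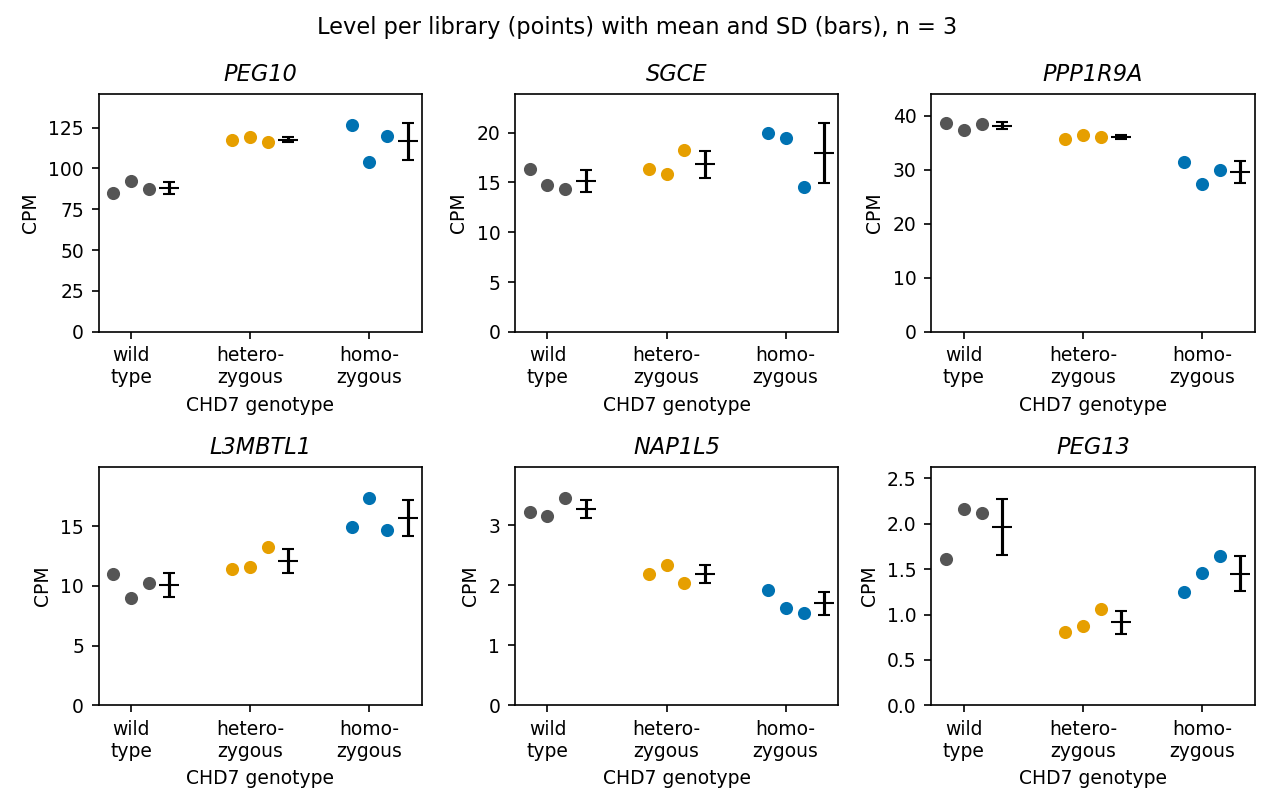
Level in CPM in each library (points) with the mean and SD of each genotype (bars, n = 3), for the 5 called imprinted genes and SGCE. PEG10 is higher in both mutants, the libraries of L3MBTL1 are ordered upwards and those of PPP1R9A and NAP1L5 downwards by genotype, and PEG13 is lowest in heterozygous cells.

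The Prader-Willi and Angelman domain holds the paternally expressed SNRPN, which encodes a splicing protein, and SNHG14, the long host RNA of many small nucleolar RNAs that runs antisense across UBE3A. SNHG14 stood at 558, 577 and 543 CPM in wild-type libraries, 511, 577 and 608 CPM in heterozygous libraries and 517, 362 and 554 CPM in homozygous libraries. Homozygous replicate 2 was lowest and the other 8 libraries lay between 511 and 608 CPM. The log2 fold change of SNHG14 in homozygous cells was -0.23 (adjusted p 0.322), and -0.06 without that replicate.

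UBE3A, the ubiquitin ligase whose maternal copy is lost in Angelman syndrome, is imprinted in neurons. It stood at 101, 111 and 102 CPM in wild-type libraries, 91.0, 94.3 and 102 CPM in heterozygous libraries and 87.8, 73.2 and 91.5 CPM in homozygous libraries. The homozygous libraries were all lower than the wild-type ones, and the estimate of -0.31 on the log2 scale (SE 0.10) missed the threshold at an adjusted p of 0.0672. DESeq2 placed it below the threshold, at an adjusted p of 0.046, and without homozygous replicate 2 the log2 fold change was -0.22 (adjusted p 0.199 with edgeR).

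SNRPN stood at 11.5, 11.3 and 11.7 CPM in wild-type, 10.8, 11.5 and 7.37 CPM in heterozygous and 13.5, 18.6 and 11.4 CPM in homozygous libraries. Heterozygous replicate 3 was lowest and homozygous replicate 2 highest, and the homozygous log2 fold change of 0.34 (adjusted p 0.311) became 0.10 without homozygous replicate 2. Exons of SNRPN overlap those of SNURF, SNHG14 and another transcript on the same strand over 33.6% of their bases, so its count is uncertain. SNHG14 and SNRPN went in opposite directions in homozygous replicate 2, and MALAT1, a nuclear long non-coding RNA named after its values were seen, was also lowest there, at 167 CPM beside 245 to 375 CPM in the other libraries. MALAT1 also fell in homozygous cells as a group (log2 fold change -0.66, adjusted p 0.0114), although leaving out wild-type replicate 2 raised the adjusted p to 0.0576.

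In the KCNQ1-CDKN1C domain, the antisense RNA KCNQ1OT1 from the paternal allele silences neighbours in cis. CDKN1C, a maternally expressed inhibitor of cyclin-dependent kinases, stood at 19.7, 24.1 and 25.4 CPM in wild-type, 21.1, 18.5 and 19.9 CPM in heterozygous and 20.4, 34.1 and 30.7 CPM in homozygous libraries. Homozygous replicates 2 and 3 were the highest of all while replicate 1 lay among the wild-type libraries, and the estimate of 0.32 on the log2 scale (SE 0.16) had an adjusted p of 0.265. Without homozygous replicate 1, the shallowest library, it was 0.50 with an adjusted p of 0.0499. Between the mutants the estimate was 0.53 (adjusted p 0.12), and 0.71 (adjusted p 0.0213) without that library. KCNQ1OT1 stood at 11.7, 13.2 and 13.8 CPM in wild-type, 9.43, 11.6 and 15.8 CPM in heterozygous and 11.6, 9.03 and 14.4 CPM in homozygous libraries, and the groups overlapped throughout. The other members of the domain were lower, SLC22A18 at 2.63 to 6.10 CPM, KCNQ1 at 0.199 to 1.15 CPM and PHLDA2 at 0.149 to 1.07 CPM, and none was called.

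Both listed genes of the neighbouring IGF2-H19 domain had few counts in all 9 libraries. H19, a maternally expressed non-coding RNA, had 0 to 4 counts per library, and IGF2, the paternally expressed fetal growth factor, had 1 to 12 counts. H19 totalled 4, 6 and 8 counts in wild-type, heterozygous and homozygous libraries and IGF2 totalled 20, 18 and 5, and neither was tested. A count of 0 for H19 in wild-type replicate 2 allows up to 0.0964 CPM by counting error alone, from 3 counts of that library's total. Exons of IGF2 overlap those of other annotated genes on the same strand over 73.7% of their bases. Among these are INS-IGF2 and another entry also named IGF2, whose counts were not examined. Reads that fell there may have been left uncounted, so the count given may understate IGF2. IGF2R, the receptor that clears IGF2 and is maternally expressed in some people, stood at 362, 348 and 350 CPM in wild-type, 303, 363 and 327 CPM in heterozygous and 354, 273 and 378 CPM in homozygous libraries, with overlap between all genotypes.

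In the DLK1-MEG3 domain, no member was called. DLK1, a Notch-ligand-like protein, ranged from 2.74 to 5.69 CPM over the 9 libraries, and RTL1, a retrotransposon-derived placental gene, from 6.14 to 11.97 CPM. MEG3 ranged from 0.262 to 0.678 CPM, and MEG8, with 19 counts in all, was not tested. The log2 fold changes against wild type lay between 0.11 and 0.56 in homozygous cells and between 0.20 and 0.61 in heterozygous cells for the 3 tested genes, with overlapping groups in both comparisons.

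NNAT, a paternally expressed small membrane protein gene, sits within an intron of BLCAP. It stood at 52.3, 65.0 and 66.5 CPM in wild-type, 59.8, 54.2 and 54.2 CPM in heterozygous and 68.2, 80.2 and 74.8 CPM in homozygous libraries. The homozygous libraries were higher than all the others, and the log2 difference was 0.41 (SE 0.10, adjusted p 0.0641) against heterozygous and 0.28 (SE 0.10, adjusted p 0.122) against wild-type cells. DESeq2 gave an adjusted p of 0.0187 between the mutants. BLCAP stood at 42.9, 57.0 and 53.9 CPM in wild-type, 46.5, 50.6 and 45.9 CPM in heterozygous and 49.1, 46.2 and 54.0 CPM in homozygous libraries, and its genotypes overlapped.

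MEST, a paternally expressed gene of the alpha/beta hydrolase family, stood at 111, 111 and 105 CPM in wild-type libraries, 117, 121 and 110 in heterozygous libraries and 130, 124 and 122 in homozygous libraries. The homozygous libraries were the highest, without overlap with either other genotype, but the log2 fold change of 0.20 (SE 0.07) missed the threshold at an adjusted p of 0.119. Transcripts on the opposite strand, among them MESTIT1 and COPG2, share 27.4% of the MEST exon bases, and COPG2 itself stood at a log2 fold change of 0.04.

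GNAS, the gene with the highest level per length, was not called in any comparison. It stood at 1474, 1473 and 1487 CPM in wild-type, 1507, 1422 and 1378 CPM in heterozygous and 1455, 1651 and 1482 CPM in homozygous libraries. Its log2 fold change in homozygous cells was 0.05, with a 95% interval from -0.11 to 0.21. The count pools its differently imprinted isoforms, and 8.73% of its exon bases are shared with transcripts on the opposite strand.

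GRB10, an adaptor that dampens insulin and IGF signalling, stood at 290, 301 and 303 CPM in wild-type, 286, 300 and 277 CPM in heterozygous and 298, 309 and 340 CPM in homozygous libraries. INPP5F, a phosphoinositide phosphatase gene with 1 imprinted isoform, stood at 149, 144 and 148 CPM in wild-type, 153, 150 and 145 CPM in heterozygous and 145, 137 and 138 CPM in homozygous libraries. Both overlapped between homozygous and wild-type cells, with log2 fold changes of 0.08 and -0.07. NLRP2, a maternally expressed member of the NLR family with the close paralogue NLRP7, stood at 44.2, 40.2 and 38.3 CPM in wild-type, 47, 48.6 and 41.6 CPM in heterozygous and 46.3, 48.6 and 41.9 CPM in homozygous libraries. The log2 fold change of NLRP2 was 0.16 in each mutant, with adjusted p of 0.514 in heterozygous and 0.362 in homozygous cells.

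The remaining tested members were low. The transcription factor gene PLAGL1 ranged from 1.21 to 2.34 CPM and its genotypes overlapped. DIRAS3, a Ras-related growth suppressor, stood at 0.482 to 0.996 CPM in wild-type, 0.212 to 0.365 CPM in heterozygous and 0.251 to 0.797 CPM in homozygous libraries. Heterozygous and wild-type libraries of DIRAS3 did not overlap, but the log2 fold change of -1.13 (SE 0.47) had an adjusted p of 0.319, and all 9 libraries together held 116 counts. ZDBF2, a zinc finger gene, was highest in heterozygous replicate 3 at 1.86 CPM and homozygous replicate 3 at 1.54 CPM, and lay between 0.390 and 0.913 CPM in the other 7 libraries.

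**Figure D5:**
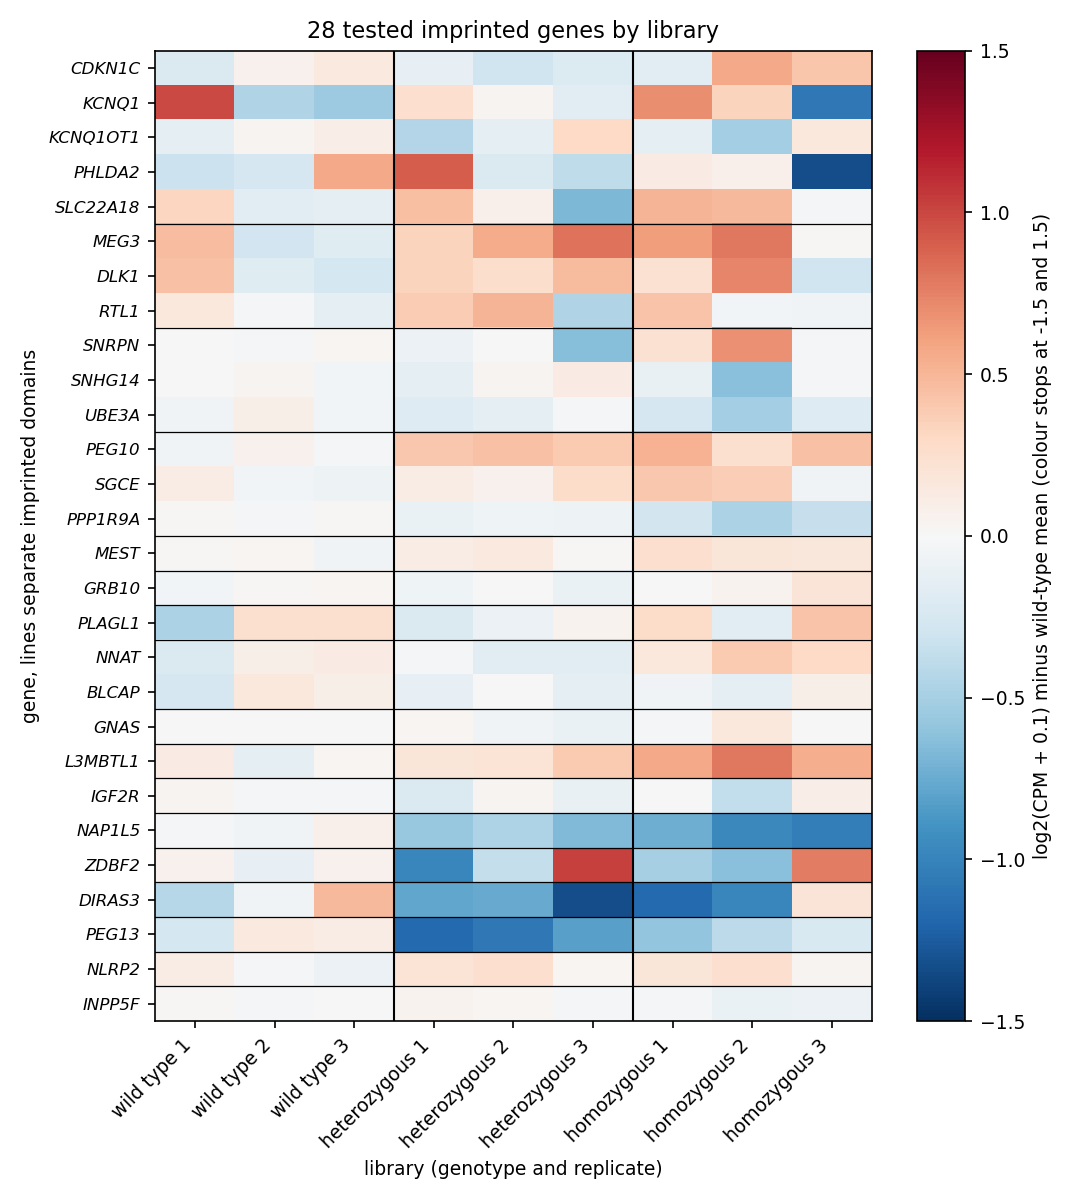
Level of the 28 tested imprinted genes in each library, as log2(CPM + 0.1) minus the mean of the wild-type libraries, with lines between domains and genotypes. PEG10 is above 0 in all 6 mutant libraries and NAP1L5 and PEG13 are below 0 in all 6, while ZDBF2 is high in heterozygous replicate 3 and homozygous replicate 3 alone.

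Single libraries stood out in several of these genes. Homozygous replicate 2 was the highest library for 6 of the 28 tested members and the lowest for 6, beside 21.1% and 23.6% of all tested genes. Heterozygous replicate 3 was the highest for 4 and the lowest for 6, beside 19.6% and 20.2%. These shares show the same 2 libraries at the extremes across the whole table.

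Genes that set, read or keep imprints were examined as a list of 32, of which 30 had a row and 27 were tested. NLRP7, a maternal-effect gene, was the 1 called member, as higher in homozygous cells (log2 fold change 2.28, adjusted p 0.0459), at 0 to 0.134 CPM in wild-type and 0.349 to 0.418 CPM in homozygous libraries. The call was lost without any 1 of 8 libraries (adjusted p 0.0527 to 0.142), and none of the 27 was called in either other comparison. Over all tested genes, 7.68% were called in homozygous cells against wild type, 1.86% in heterozygous cells and 2.21% between the mutants. In heterozygous cells NLRP7 stood at 0.339 to 0.423 CPM, also without overlap with wild type, and its estimate of 2.30 (SE 0.61, adjusted p 0.089) was as large as the homozygous one. The maintenance methyltransferase gene DNMT1 stood at 105 to 135 CPM over the 9 libraries, and its partner UHRF1 at 31.05 to 44.2 CPM. The de novo methyltransferase genes DNMT3A and DNMT3B stood at 88.9 to 105 and 286 to 387 CPM. TRIM28 stood at 571 to 870 CPM, CTCF, which insulates the IGF2-H19 domain, at 106 to 121 CPM, and ZNF445 at 33.5 to 44.4 CPM. ZFP57, by contrast, was at 0.0331 to 0.199 CPM and was not tested. Apart from NLRP7, the 7 tested genes named here were not called, and their homozygous log2 fold changes lay between -0.13 (DNMT3A) and 0.07 (ZNF445).

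Genes of insulin-like growth factor signalling, through which several imprinted genes act, were listed as 19, of which 13 were tested. None was called in heterozygous cells against wild type, beside 1.86% of all tested genes. The shares of all tested genes called were 7.68% in homozygous cells against wild type and 2.21% between the mutants. IGFBP4, a secreted binding protein that restrains IGF action, rose in homozygous cells against wild type (log2 fold change 1.16, adjusted p 0.000223). It stood at 35.0, 30.3 and 30.2 CPM in wild-type, 52.5, 43.8 and 36.0 CPM in heterozygous and 70.0, 81.3 and 61.9 CPM in homozygous libraries. All 3 homozygous libraries were higher than the others, and IGFBP4 was also called between the mutants (0.69, adjusted p 0.0222), a call lost without any 1 of 4 libraries. HMGA2, a chromatin protein gene of fetal growth, fell in homozygous cells by 0.49 on the log2 scale (adjusted p 0.0333), and that call was lost without any 1 of 6 libraries. The receptors IGF1R, at 222 to 296 CPM, and INSR, at 19.1 to 24.8 CPM, were not called in any of the 3 comparisons.

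Of 50 genes that flank the imprinted domains, 38 were tested. ACAT2, a cholesterol and acetyl-CoA enzyme gene, fell in homozygous cells by 0.34 on the log2 scale (adjusted p 0.023), and WLS, which encodes a carrier of secreted Wnt proteins, fell in heterozygous cells by 0.48 (adjusted p 0.0447). The ACAT2 call was lost without any 1 of 3 libraries and the WLS call without any 1 of 6. Against wild type, 7.68% of all tested genes were called in homozygous and 1.86% in heterozygous cells. None of the 38 was called between the mutants, beside 2.21% of all tested genes, and none rose against wild type.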

How the data were processed

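RNA-seq libraries were made from total RNA of 9 samples, 3 per CHD7 genotype. The table deposited by the authors holds raw whole-number counts of reads per Ensembl gene, with 1 column per library. Per the submitters' processing notes, HISAT2, HTSeq, SAMtools, Trimmomatic and FastQC were used with the genome hg38, no version or role being stated. The sources used here do not give the annotation release or the strand setting. Symbols were matched for 26177 of 26240 genes, and coordinates and exon lengths were taken from GENCODE release 29 on GRCh38.

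The 38 imprinted genes, the other gene lists, the windows around called genes and the hexamer were chosen with earlier results of these data known. In R 4.3.3, edgeR 4.0.16 filtered genes with filterByExpr by genotype, which removed 9403 and left 16837. After TMM scaling, counts were fitted in 1 quasi-likelihood model on all 9 libraries with genotype as the only factor. A gene was called where its two-sided p, after Benjamini-Hochberg adjustment over all tested genes, was below 0.05. Levels in CPM are counts per 1000000 of the TMM-scaled library. The SE is the log2 fold change divided by the square root of F. The common coefficient of biological variation was 0.121. The fit was tested on simulated counts, in which the share of false calls for homozygous against wild type exceeded the nominal one. No pair of replicates agreed within sampling noise (chi-square per degree of freedom 2.55 to 30.6).

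A member is given with its value in every library if it was called or averaged at least 10 CPM, and otherwise by its range. From each other list, up to 4 called genes per comparison are named, along with 11 genes fixed by name. Some marker genes are not reported here. Alternatives were other size factors, other filters, DESeq2 1.42.0, limma-voom (limma 3.58.1), a fit with only the 6 libraries compared, a block for replicate number, glmTreat against 1.5-fold, and leaving out each library. For genes outside the list these alternatives were added after the data were seen. Floors for a count of 0 rest on 3 counts and cover only counting error, as several reads may stem from 1 molecule. Depth ran from 11854173 to 37519729 counts per library.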

Additional observations from a re-analysis of the deposited data

How the results depend on the processing

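The counts of called imprinted genes held within 1.5 times under other size factors, other filters, limma-voom and the 6 libraries of a comparison alone. Against a 1.5-fold change, glmTreat called 0 in homozygous and 0 in heterozygous cells against wild type, the lowest adjusted p being 0.305 for NAP1L5. Between the mutants DESeq2 called 2. On leaving out each library, the counts ranged from 2 to 5 for homozygous against wild type, 0 to 2 for heterozygous against wild type, 0 to 1 between the mutants and 0 to 5 for any genotype. Leaving out a wild-type library also changed the count over all genes, to between 651 and 986 from 1293 in homozygous cells, and leaving out homozygous replicate 3 gave 2118. With the replicate number as a block, 4, 2 and 0 imprinted genes and 1503, 492 and 461 of all genes were called in the 3 comparisons, and 4 for any genotype. Same-numbered libraries did not all deviate together (r from -0.195 to 0.245), so the number was not taken as a pairing.

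Of 1496 recomputed fold changes of imprinted genes, 64 changed sign, none of them in a comparison in which that gene was called, and the cause was not tested. In homozygous cells against wild type, the replicate block gave 0.029 for KCNQ1 and -0.17 for ZDBF2, limma-voom -0.15 for ZDBF2, and upper quartile scaling 0.0028 for BLCAP. In heterozygous cells, limma-voom gave 0.0082 for KCNQ1, -0.038 for SLC22A18 and -0.21 for ZDBF2, and the block -0.022 for SLC22A18 and -0.092 for ZDBF2. Between the mutants, limma-voom gave -0.14 for KCNQ1 and 0.0600 for ZDBF2, and upper quartile scaling 0.011 for PEG10 and 0.021 for NLRP2. For NLRP2 the filter of 1 CPM in 3 libraries gave 0.0095 and the fit of 6 libraries 0.0039.

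Leaving out each library in turn gave these ranges of the log2 fold change for homozygous against wild type, as BLCAP (-0.16 to 0.045), DLK1 (-0.089 to 0.53), GNAS (-0.0097 to 0.087), IGF2R (-0.17 to 0.0498) and KCNQ1 (-0.42 to 0.74). Further ranges there were KCNQ1OT1 (-0.34 to 0.023), PHLDA2 (-0.72 to 0.088), PLAGL1 (-0.0595 to 0.36), RTL1 (-0.0499 to 0.19) and ZDBF2 (-0.66 to 0.38). The ranges for heterozygous against wild type were KCNQ1 (-0.47 to 0.68), KCNQ1OT1 (-0.30 to 0.088), PHLDA2 (-0.39 to 0.63) and PLAGL1 (-0.33 to 0.019). Further ranges there were SLC22A18 (-0.27 to 0.26), SNHG14 (-0.042 to 0.083) and ZDBF2 (-0.74 to 0.52). The ranges between the mutants were BLCAP (-0.0032 to 0.11), DIRAS3 (-0.16 to 0.84), DLK1 (-0.40 to 0.19), IGF2R (-0.081 to 0.14), KCNQ1 (-0.23 to 0.48) and KCNQ1OT1 (-0.27 to 0.15). Further ranges there were MEG3 (-0.31 to 0.19), NLRP2 (-0.064 to 0.053), PEG10 (-0.071 to 0.063), PHLDA2 (-0.98 to 0.057), RTL1 (-0.33 to 0.083) and ZDBF2 (-0.78 to 0.77).

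H19, IGF2, MEG8 and KCNK9 had too few counts per library to be tested. The 95% intervals of KCNQ1, PHLDA2, ZDBF2, DIRAS3 and MEG3, also low in counts, span more than 1 log2 unit, as do some others. The design has 3 libraries per genotype and no label for clone or culture, so genotype and clone cannot be told apart.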

Other observations

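A further 59 genes reported as imprinted in some tissue, species or study were listed beside the 38, of which 49 had a row and 36 were tested. In homozygous cells against wild type, 3 rose and 4 fell, beside 7.68% of all tested genes called. HECW1, a ubiquitin ligase gene, was called in all 3 comparisons, and its genotypes followed each other upwards without overlap. It stood at 4.80, 3.02 and 3.15 CPM in wild-type, 7.09, 7.23 and 6.99 CPM in heterozygous and 15.7, 13.03 and 15.54 CPM in homozygous libraries, with log2 fold changes of 0.94 in heterozygous and 1.99 in homozygous cells. The heterozygous call (adjusted p 0.0174) was lost without any 1 of 4 libraries (adjusted p 0.0541 to 0.12), and the homozygous call (adjusted p 2.37e-05) held without each of the 9 in turn.

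PPIEL, a transcribed pseudogene related to the cyclophilin gene PPIE, with which it could share reads, stood at 2.39, 3.57 and 3.65 CPM in wild-type, 6.73, 6.94 and 7.45 CPM in heterozygous and 8.35, 8.90 and 9.32 CPM in homozygous libraries. It was called in both mutants, with log2 fold changes of 1.15 and 1.48. LPAR6, a lysophosphatidic acid receptor gene that lies within RB1, stood at 1.16 to 2.81 CPM in wild-type, 1.06 to 1.69 CPM in heterozygous and 0.0498 to 0.334 CPM in homozygous libraries. Its homozygous libraries lay below all the others, with a log2 fold change of -3.28 against wild type (adjusted p 0.00156). CALCR stood at 25.7, 30.8 and 30.2 CPM in wild-type, 21.0, 24.1 and 22.6 CPM in heterozygous and 16.1, 16.4 and 19.4 CPM in homozygous libraries, and its genotypes followed each other downwards without overlap. The other called genes of this list, named after their values were seen, were FAM50B (0.88, higher), ZC3H12C (-0.55) and the tumour suppressor gene WT1 (-1.59). Each of these 3 calls was lost on leaving out at least 4 of the 9 libraries in turn.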
